A study of Homo sapiens with 9 samples.

Results

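The ATP-binding cassette (ABC) and organic anion (SLCO) transporters were examined in AsPC-1 cells after knockdown of STOML2. The members are all rows of the array table whose single gene symbol begins with ABCA, ABCB, ABCC, ABCD, ABCE, ABCF, ABCG or SLCO. They number 51 of 17709 rows with a single symbol, of which 39 are ABC genes and 12 carry SLCO symbols. The 12 SLCO rows comprise 11 carriers and the antisense gene SLCO4A1-AS1.

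AsPC-1 is an established human pancreatic adenocarcinoma cell line. The sh1 group carried a pBAsi-hU6 NEO plasmid with shRNA-1 of SLP-2, the sh2 group carried that plasmid with shRNA-2, and the control group carried the blank plasmid. SLP-2 is the product of STOML2, and the human U6 promoter in the plasmid name drives small RNAs. All groups went through Geneticin selection over 3 weeks, and each was expanded from a single colony, so that shRNA and clone cannot be told apart. Each group had 3 arrays of total RNA, with 9 arrays in all, and because nothing says that they came from separate cultures, p-values reflect the array-to-array spread within a clone alone, and this may be technical.

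ABC proteins use ATP to move lipids, drugs, conjugates and peptides across membranes, while SLCO proteins (also called OATPs) take up bile acids, hormones, prostaglandins and drugs without using ATP directly. In the liver, uptake by SLCO carriers and export by the ABCB, ABCC and ABCG subfamilies form a chain from blood to bile. In tumour cells these families are studied because they set how much of a drug enters and stays. ABCE1 and the ABCF genes keep the ATP-binding domains but act in ribosome recycling and translation, not in transport.

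The sequences that precede transcription of 3 members are shown because these genes had the most marked fall (SLCO1B3), a rise that passed in sh2 (ABCA1) and calls in opposite directions in the clones (ABCA3). The windows come from RefSeq on GRCh38.p14, run from 250 bases before to 50 after an annotated start, and are written on the gene's strand. Of the 51 members, 39 had such a window. Capitals mark the motifs that were searched on both strands, which were the TATA box (TATAAA), the CCAAT box (CCAAT), the GC box (GGGCGG), the E-box (CACGTG) and a direct repeat of the type bound by the liver X receptor (LXR), AGGTNA followed by NGGTCA with 4 bases between them. The repeat was written loosely enough to admit the element known from ABCA1.
SLCO1B3, chr12:20810455-20810754, plus strand: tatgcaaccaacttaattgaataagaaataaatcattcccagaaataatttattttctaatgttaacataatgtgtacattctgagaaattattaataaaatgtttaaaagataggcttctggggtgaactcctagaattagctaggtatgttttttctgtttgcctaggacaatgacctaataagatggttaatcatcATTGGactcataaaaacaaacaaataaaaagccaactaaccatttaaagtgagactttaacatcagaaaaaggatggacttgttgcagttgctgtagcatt
ABCA1, chr9:104928106-104928405, minus strand: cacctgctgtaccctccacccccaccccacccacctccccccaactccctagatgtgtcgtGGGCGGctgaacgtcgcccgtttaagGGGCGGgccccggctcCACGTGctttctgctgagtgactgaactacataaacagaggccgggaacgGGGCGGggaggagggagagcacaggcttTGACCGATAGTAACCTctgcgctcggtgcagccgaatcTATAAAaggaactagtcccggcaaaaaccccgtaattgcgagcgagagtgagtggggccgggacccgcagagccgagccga
ABCA3, chr16:2340679-2340978, minus strand: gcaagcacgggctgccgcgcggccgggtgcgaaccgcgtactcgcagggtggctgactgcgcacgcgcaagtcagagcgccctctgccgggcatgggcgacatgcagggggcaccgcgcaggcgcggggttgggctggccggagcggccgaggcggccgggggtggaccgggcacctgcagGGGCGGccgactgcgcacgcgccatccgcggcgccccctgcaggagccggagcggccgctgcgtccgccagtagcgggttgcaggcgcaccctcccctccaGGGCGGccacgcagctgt

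The SLCO1B3 window was AT-rich (30.0% G and C) and held 1 CCAAT box and none of the other motifs. The ABCA1 window (62.7% G and C) held 3 GC boxes, 1 E-box, 1 TATA box and 1 LXR-type repeat, which stood in 33 of the 35097 windows of all annotated starts. The ABCA3 window was GC-rich (78.0%), with 2 GC boxes and none of the other motifs. Over all windows the GC box stood in 44.9%, the CCAAT box in 34.6%, the TATA box in 11.5% and the E-box in 7.25%. A match is a description of the letters and not a site of binding.

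Signals are log2 values as deposited, from 21448 rows with array medians of 6.57 to 6.65. The value of 4.21, the lower quartile of the mean signals over rows, marks signals near the background, because detection calls were not used here. STOML2, the knockdown target, read 8.36, 8.42 and 8.18 in sh1, 7.85, 7.99 and 7.35 in sh2, and 13.70, 13.66 and 13.65 in the control. The 8 measured markers of duct epithelium averaged 4.63 to 16.91 in sh1, 5.21 to 16.90 in sh2 and 4.88 to 16.20 in the control, with S100P the dimmest, and the 5 measured hepatocyte markers averaged 3.02 to 4.78 over the groups. Of the duct markers 4 were higher and 1 lower in sh1, and 3 were higher and 2 lower in sh2 (limma). That is 62.5% called in either clone, against 18.8% of all rows in sh1 and 16.3% in sh2. EPCAM differed by 4.94 in sh1 and 0.74 in sh2, CDH1 by 2.03 and -0.52, and KRT19 by -1.69 and -0.57. The sum of the 8 signals in an array was 92.53 to 94.66 in sh1, 89.11 to 89.61 in sh2 and 86.56 to 87.07 in the control, and their part in the results below was not tested. Of the 51 members, 16 lay under 4.21 in all 3 groups and 35 did not.

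Differences were tested with limma over all rows, and rows with a Benjamini-Hochberg (BH) adjusted p under 0.05 count as called. In sh1, 11 of 51 members were called (21.6%) against 18.8% of all rows, with 2 higher and 9 lower where all rows gave 9.76% higher and 9.0% lower. In sh2, 13 members were called (25.5%) against 16.3% of all rows, with 6 higher and 7 lower where all rows gave 8.33% and 7.98%. The share called in sh1 was thus near that of all rows, and in sh2 somewhat above it. Among the 16671 rows not under 4.21 in all groups, 23.7% were called in sh1 and 20.7% in sh2. The 35 members not under it gave 31.4% and 37.1%. Shares of gene lists are set against all rows, dim rows included. The median difference of the members was -0.09 in sh1 and -0.07 in sh2, against 0.02 in sh1 and 0.02 in sh2 over all rows. At 2-fold or more, 5 members were called in sh1 and 4 in sh2, while all rows gave 5.59% and 4.50%. The arrays did not overlap those of the control for 21 members in sh1, against 34.5% of all rows, and for 17 members in sh2, against 32.5%. Both comparisons share the control arrays, so values in the clones are given side by side and not as independent evidence.

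**Figure D1:**
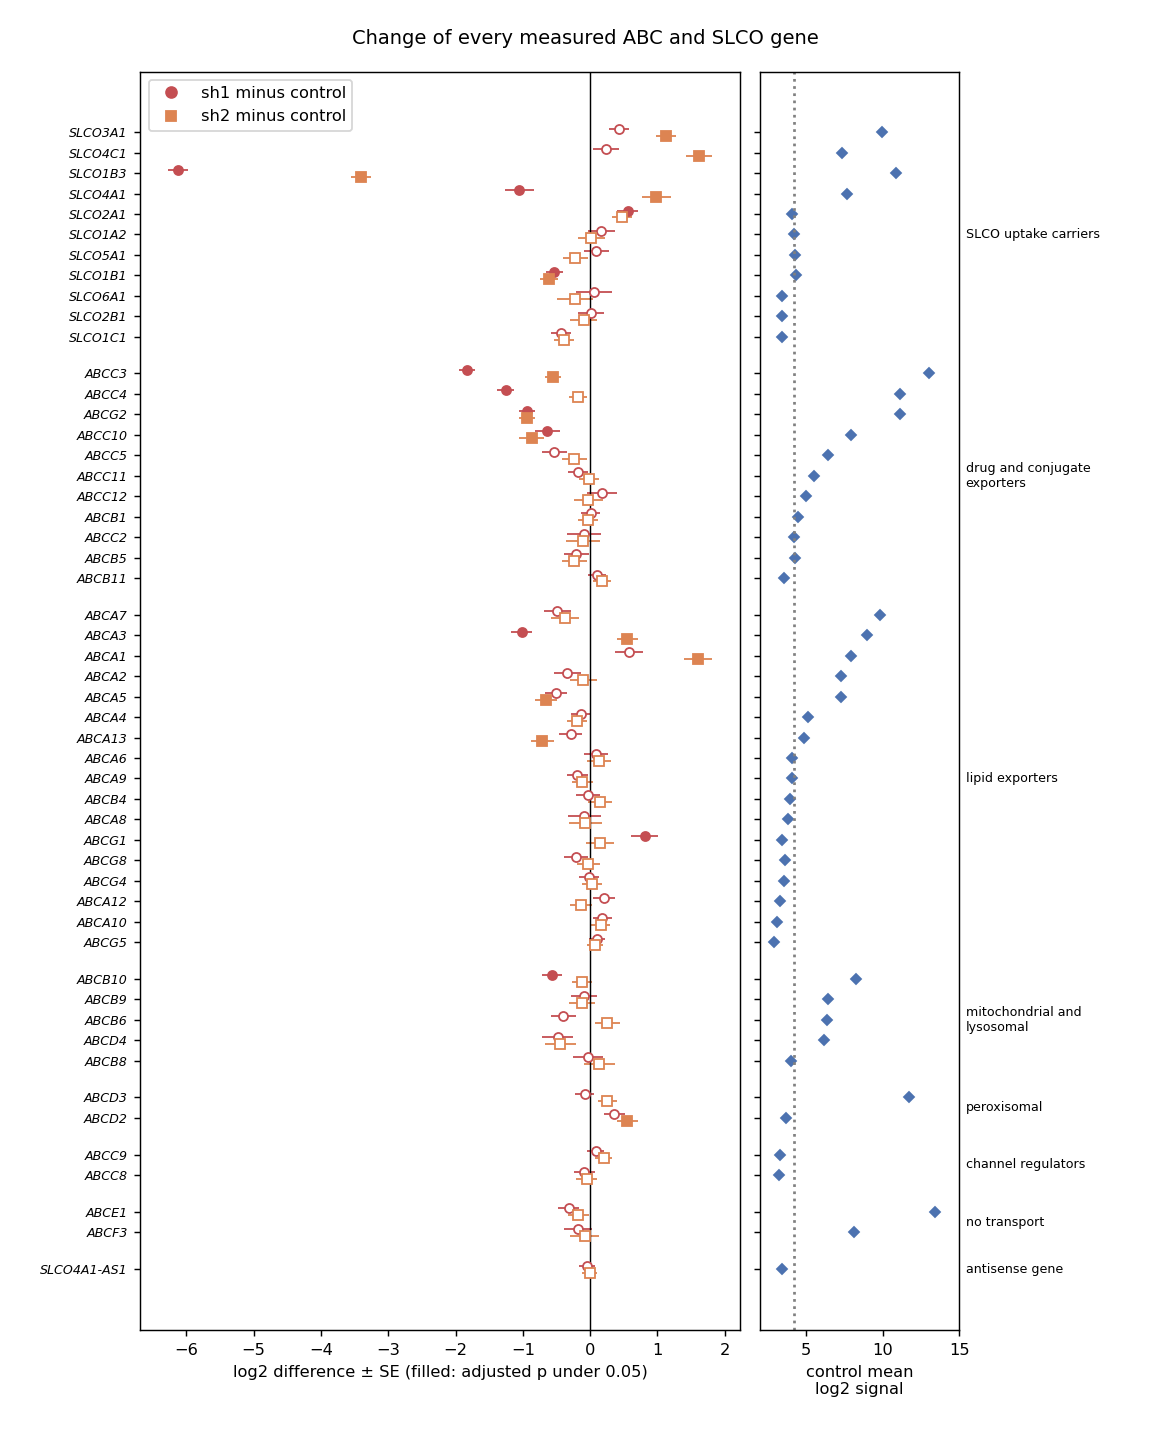
Log2 difference of every measured ABC and SLCO gene from the control (x axis, left panel; points with SE from limma; circles sh1, squares sh2; filled where the adjusted p was under 0.05), grouped by role, beside its mean log2 signal in the control (right panel, dotted line at the lower quartile of the row means, 4.21). Most members lie near 0, and SLCO1B3 stands far to the left at -6.13 in sh1 and -3.40 in sh2.

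SLCO1B3 was the member with the most marked change. It encodes OATP1B3, which takes up bile acids, bilirubin conjugates and drugs from the blood in hepatocytes, and tumours of the colon and pancreas are known to make a shorter cancer-type transcript of it from an internal start. Its signal was 4.65, 4.55 and 5.10 in sh1, 7.53, 7.39 and 7.55 in sh2, and 10.89, 10.90 and 10.89 in the control. The 3 groups did not overlap, with sh1 close to the lower quartile of the rows and sh2 between sh1 and the control. The change was -6.13 ± 0.15 (SE) in sh1, where no fold is given because the signal lay near the background mark (limma, BH-adjusted p = 1.35e-09), and -3.40 ± 0.15 in sh2, a 10.6-fold fall (BH-adjusted p = 4.60e-08). In these bulk samples, fewer cells that express the gene and less RNA per cell cannot be told apart. The row does not tell the liver-type transcript from the cancer-type one, and the window printed above belongs to 1 annotated start.

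The genes around SLCO1B3 on chromosome 12 changed far less than it did. In chromosome order the measured rows run PDE3A, SLCO1C1, SLCO1B3, SLCO1B1, SLCO1A2, IAPP and PYROXD1. SLCO1B1, the hepatic paralog OATP1B1, read 3.96, 3.73 and 3.86 in sh1, 3.82, 3.61 and 3.88 in sh2, and 4.24, 4.40 and 4.50 in the control. It was called lower in both clones, by a difference of -0.53 ± 0.13 (SE) in sh1 and -0.61 ± 0.13 in sh2 (limma, BH-adjusted p = 0.0156 and 0.00841). Its means of 3.85 in sh1, 3.77 in sh2 and 4.38 in the control lay around the lower quartile, and the sh1 call was lost without control array 3 or sh1 array 2 (-0.47 in either case, BH-adjusted p = 0.0627 and 0.0545). Whether SLCO1B3 transcripts contribute to the row of this close paralog was not tested. SLCO1C1, a thyroxine carrier of the brain, differed by -0.43 in sh1 and -0.39 in sh2 (BH-adjusted p = 0.067 and 0.11), with all 3 group means under 4.21, and the sh2 value passed relative to its neighbours (-0.57, BH-adjusted p = 0.0434). SLCO1A2, a bile salt and drug carrier, differed by 0.16 and 0.01. PDE3A differed by 0.17 and 0.04, IAPP by 0.25 and -0.05, and PYROXD1 by 0.05 and -0.13, and none of them was called. The 40 nearest genes with a signal above the row median moved by a median of 0.22 in sh1 and of 0.32 in sh2.

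**Figure D2:**
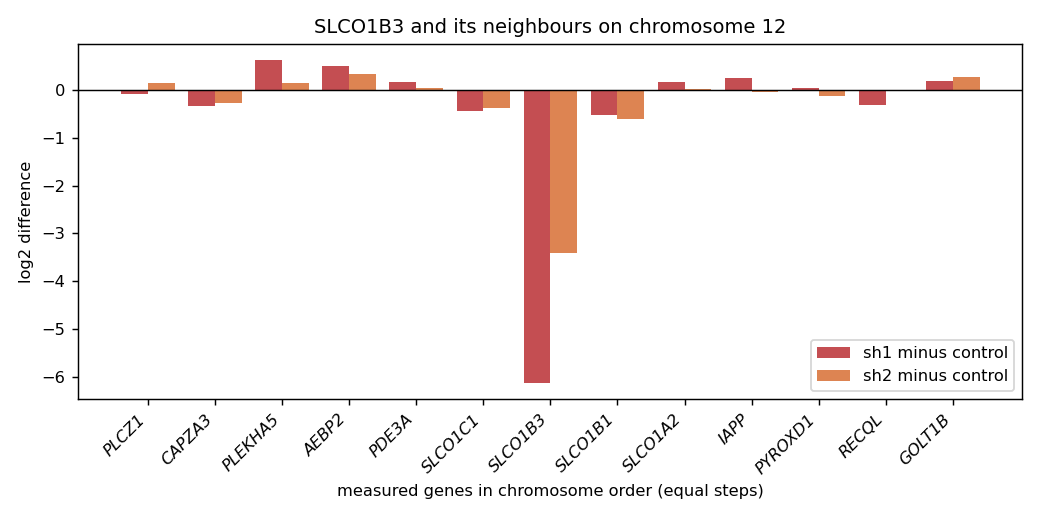
Log2 difference from the control (y axis) for SLCO1B3 and the 6 measured genes on each side of it in chromosome order (x axis, equal steps), with sh1 left of sh2 in each pair of bars. SLCO1B3 stands at -6.13 in sh1 and -3.40 in sh2, while its neighbours lie between -0.61 and 0.62.

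SLCO4A1 encodes OATP4A1, a widely expressed carrier of thyroid hormones and prostaglandins, and its change had opposite signs in the clones. Its signal was 6.59, 6.70 and 6.55 in sh1, 8.98, 8.92 and 8.05 in sh2, and 7.82, 7.70 and 7.48 in the control. All sh1 arrays were below and all sh2 arrays above the control arrays, and sh2 array 3 stood nearest to them. The difference was -1.05 ± 0.22 (SE) in sh1 (limma, BH-adjusted p = 0.00536) and 0.98 ± 0.22 in sh2 (BH-adjusted p = 0.00957). Its antisense gene SLCO4A1-AS1 stayed under 4.21 in all groups and differed by -0.05 and -0.01. NTSR1, the next gene beyond the antisense gene, rose by 2.13 in sh1 and 2.96 in sh2 (BH-adjusted p = 1.93e-06 and 1.08e-07), so this neighbour did not follow SLCO4A1 in sh1.

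SLCO4C1, a carrier of digoxin and thyroid hormones known from the kidney, rose in sh2. It read 7.64, 7.65 and 7.42 in sh1, 8.50, 9.36 and 9.0 in sh2, and 7.49, 7.35 and 7.16 in the control, so that sh1 overlapped the control and sh2 lay above both. The difference was 0.24 ± 0.20 (SE) in sh1 (limma, BH-adjusted p = 0.482) and 1.62 ± 0.20 in sh2, a 3.07-fold rise (BH-adjusted p = 0.000174). Its neighbour SLCO6A1, a testis carrier, differed by 0.06 and -0.23 at signals under 4.21. ST8SIA4, a polysialyltransferase on its other side, fell by 1.33 in sh1 and rose by 1.72 in sh2 (BH-adjusted p = 0.0012 and 0.000242).

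SLCO3A1, a broadly expressed carrier of prostaglandins and thyroxine, also rose in sh2. Its signal was 10.49, 10.42 and 10.21 in sh1, 11.12, 11.28 and 10.80 in sh2, and 9.88, 9.88 and 10.06 in the control, with no overlap between the groups. The difference was 0.43 ± 0.15 (SE) in sh1 (limma, BH-adjusted p = 0.0686) and 1.13 ± 0.15 in sh2 (BH-adjusted p = 0.000329). SLCO3A1 lies on chromosome 15, where its 40 nearest expressed genes moved by a median of 1.04 in sh1 and of 0.38 in sh2. Relative to those neighbours its value was -0.61 in sh1 (BH-adjusted p = 0.0198) and 0.75 in sh2 (BH-adjusted p = 0.0075), so the sh1 value reversed.

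SLCO2A1, the prostaglandin uptake carrier, read 4.36, 4.91 and 4.76 in sh1, 4.70, 4.57 and 4.51 in sh2, and 4.06, 4.05 and 4.25 in the control. It was called in sh1, by 0.56 ± 0.15 (SE; limma, BH-adjusted p = 0.026), at a level close to the lower quartile, and its difference in sh2 was 0.47 ± 0.15 (BH-adjusted p = 0.0596). The sh2 value passed relative to its neighbours (0.62, BH-adjusted p = 0.015), with dim rows left out, in a fit of those 2 groups alone and without sh1 array 1 or 2 (BH-adjusted p = 0.0322 to 0.0444). The sh1 call was lost without control array 1 or 2 or without sh1 array 2 or 3 (0.44 to 0.53, BH-adjusted p = 0.0836 to 0.0929). The remaining carriers, SLCO2B1 of liver and intestine and SLCO5A1, whose substrates are little known, differed by -0.22 to 0.09 in either clone and were not called. Of the 11 SLCO carriers, 4 passed in sh1 (1 of them higher, 3 lower) and 5 passed in sh2 (3 of them higher, 2 lower), which is 36.4% and 45.5% against 18.8% and 16.3% of all rows. Of the 4 sh1 calls, those of SLCO1B1 and SLCO2A1 did not hold with every array left out in turn.

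**Figure D3:**
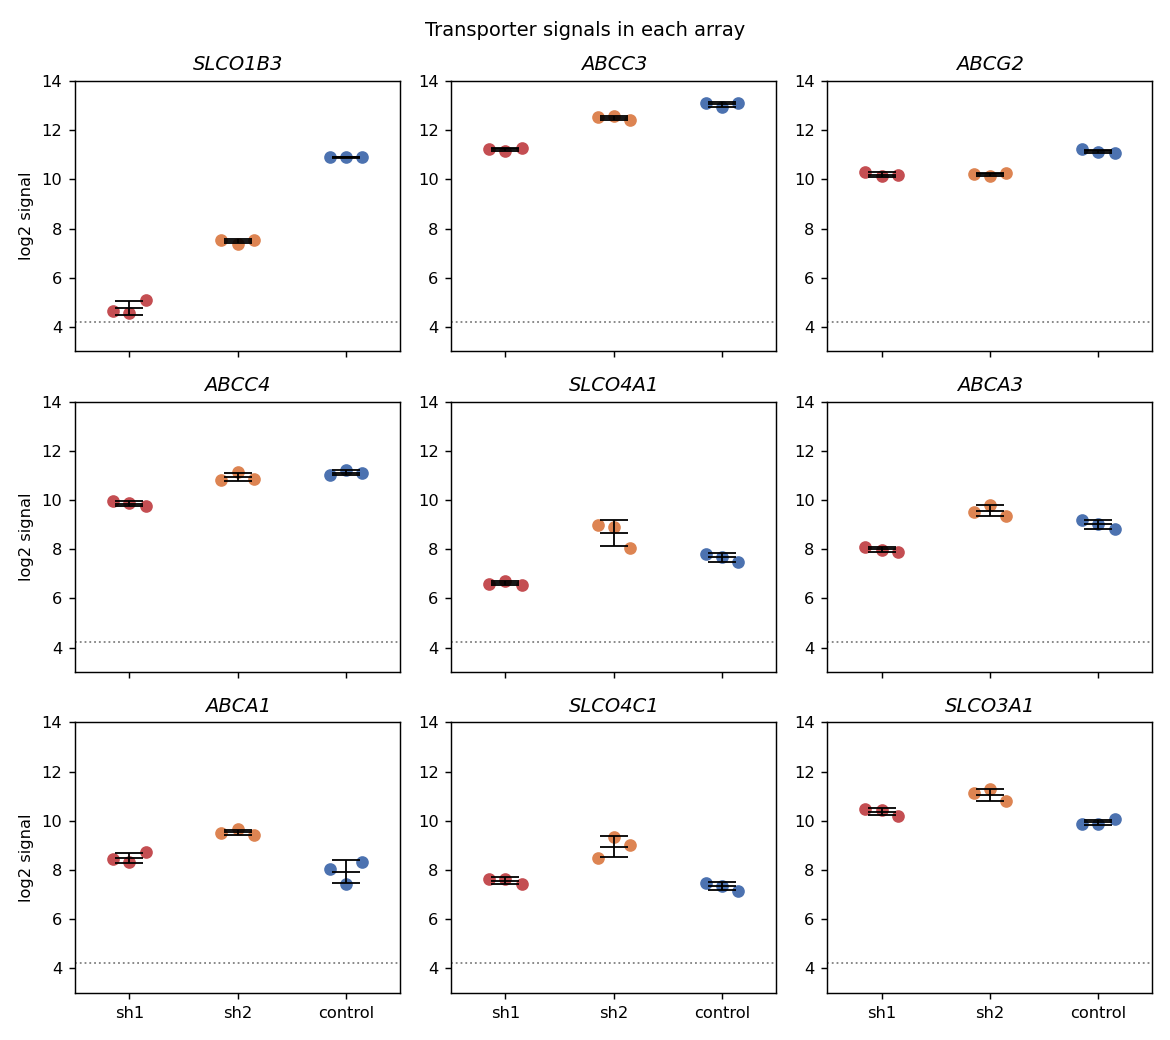
Log2 signal (y axis) of 9 members in each array, by group (sh1, sh2 and control, from left to right; points are arrays, bars are mean ± SD over 3 arrays, and the dotted line is the lower quartile of the row means, 4.21). SLCO1B3, ABCC3 and ABCG2 lie below the control in both clones, SLCO4A1 and ABCA3 lie below it in sh1 and above it in sh2, and ABCC4 is apart only in sh1.

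Among exporters of drugs and conjugates, the called members were all lower. ABCC3 (MRP3) exports glucuronides and bile salts across the basolateral membrane. Its signal was 11.24, 11.16 and 11.27 in sh1, 12.53, 12.56 and 12.41 in sh2, and 13.10, 12.95 and 13.11 in the control, with sh1 lowest and no overlap between the groups. It fell by 1.83 ± 0.12 (SE) in sh1, or 3.56-fold (limma, BH-adjusted p = 1.05e-06), and by 0.55 ± 0.12 in sh2, or 1.47-fold (BH-adjusted p = 0.00726). Its 40 nearest expressed genes on chromosome 17 moved by a median of -0.59 in sh1 and of -0.68 in sh2. Relative to them ABCC3 stood at -1.24 in sh1 (BH-adjusted p = 2.30e-05) and at 0.13 in sh2 (BH-adjusted p = 0.588), where the call was lost and the sign turned.

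ABCG2 (BCRP), which exports many anticancer drugs and urate, fell by nearly the same amount in both clones. It read 10.30, 10.12 and 10.17 in sh1, 10.23, 10.12 and 10.25 in sh2, and 11.22, 11.10 and 11.09 in the control, so that the clones overlapped each other and not the control. The difference was -0.94 ± 0.12 (SE) in sh1 and -0.94 ± 0.12 in sh2 (limma, BH-adjusted p = 0.000175 and 0.00022). The difference between the clones was 0.00, with a 95% interval of -0.26 to 0.26.

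ABCC4 (MRP4), an exporter of cyclic nucleotides and prostaglandins, fell in sh1. Its signal was 9.95, 9.88 and 9.75 in sh1, 10.82, 11.13 and 10.85 in sh2, and 11.04, 11.22 and 11.09 in the control, so that only sh1 lay wholly below the control. The difference was -1.26 ± 0.13 (SE) in sh1 (limma, BH-adjusted p = 4.36e-05) and -0.18 ± 0.13 in sh2 (BH-adjusted p = 0.421). Its chromosome 13 neighbours moved by a median of 0.20 in sh1 and of 0.65 in sh2, and relative to them the sh2 value was -0.84 (BH-adjusted p = 0.00356), which passed.

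ABCC10 (MRP7), which is known to export taxanes, read 7.30, 7.40 and 7.24 in sh1, 7.50, 6.89 and 6.85 in sh2, and 7.68, 8.15 and 8.02 in the control. It was called lower in both clones, by -0.64 ± 0.19 (SE) in sh1 and -0.87 ± 0.19 in sh2 (limma, BH-adjusted p = 0.034 and 0.00789). Its neighbours on chromosome 6 moved by a median of -0.84 in sh1 and of -0.82 in sh2, and relative to them ABCC10 stood at 0.20 and -0.05 (BH-adjusted p = 0.469 and 0.886), so neither call held. The sh1 call was also lost with arrays blocked by number (-0.64, BH-adjusted p = 0.0585), and without control array 2 or 3 or any sh1 array (-0.68 to -0.54, BH-adjusted p = 0.0606 to 0.124).

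The other members of this role were not called. ABCB1 (P-glycoprotein), the best-known multidrug exporter, averaged 4.48 ± 0.21 in sh1, 4.44 ± 0.03 in sh2 and 4.47 ± 0.19 in the control (SD, n = 3), near the lower quartile. The 95% interval of its difference was -0.31 to 0.32 in sh1 and -0.35 to 0.28 in sh2. ABCC5 (MRP5), an exporter of nucleotide analogues, differed by -0.53 in sh1 and -0.24 in sh2 (limma, BH-adjusted p = 0.0721 and 0.468). ABCC2 (MRP2) and ABCB11 (the bile salt export pump) of the bile canaliculus, and ABCB5, ABCC11 and ABCC12, differed by -0.24 to 0.18 in either clone. In all, 0 of the 11 measured exporters were higher and 4 lower in sh1, and 0 were higher and 3 lower in sh2 (limma), where 9.0% and 7.98% of all rows were lower. The sh2 calls of ABCC3 and ABCC10 and the sh1 call of ABCC10 did not hold relative to neighbours, as given above, while ABCB5 in sh2 passed on that scale (-0.80, BH-adjusted p = 0.00776). At an unadjusted p under 0.05, 0 were higher and 5 lower in sh1, and 0 higher and 3 lower in sh2. All 21448 rows gave 3392 higher and 2998 lower in sh1 at that cut, and 3158 higher and 2807 lower in sh2.

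Among lipid exporters, ABCA1 and ABCA3 had the most marked values. ABCA1 hands cholesterol and phospholipid to apolipoprotein A-I and is a textbook target of LXR. It read 8.46, 8.33 and 8.73 in sh1, 9.49, 9.66 and 9.43 in sh2, and 8.06, 7.42 and 8.31 in the control, where array 2 was low. Every array of either clone lay above every control array, and sh2 lay above sh1. The difference was 1.60 ± 0.21 (SE) in sh2, a 3.02-fold rise (limma, BH-adjusted p = 0.000276), and 0.58 ± 0.21 in sh1 (BH-adjusted p = 0.0795). Leaving out control array 2 lowered the sh1 value to 0.32 and the sh2 value to 1.34, and leaving out control array 3 gave 0.77 in sh1 (BH-adjusted p = 0.0297). The sh1 value also passed with a trended and robust variance prior (BH-adjusted p = 0.0476).

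ABCA3 loads phospholipid into the lamellar bodies of lung alveolar cells. Its signal was 8.11, 7.99 and 7.88 in sh1, 9.52, 9.81 and 9.36 in sh2, and 9.18, 9.02 and 8.83 in the control, with all groups apart. The difference was -1.02 ± 0.15 (SE) in sh1 (limma, BH-adjusted p = 0.000617) and 0.55 ± 0.15 in sh2 (BH-adjusted p = 0.0276). The sh2 call was lost without control array 2 or 3 or sh2 array 1 or 2 (0.43 to 0.58, BH-adjusted p = 0.0531 to 0.108), and relative to its neighbours it was 0.35 (BH-adjusted p = 0.173). The adjoining genes on chromosome 16 did not share the fall in sh1, since RNPS1 rose there by 0.82 and CCNF by 0.90 (limma, BH-adjusted p = 0.00202 and 0.0171).

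Of the 17 lipid exporters, 1 was higher and 1 lower in sh1, and 2 were higher and 2 lower in sh2 (limma). That is 11.8% and 23.5% called, against 18.8% and 16.3% of all rows. Apart from ABCA1 and ABCA3, 3 lipid exporters were called. ABCA5, a lysosomal member, read 6.97, 6.94 and 6.46 in sh1, 6.75, 6.76 and 6.41 in sh2, and 7.26, 7.28 and 7.34 in the control. Both clones lay below the control and overlapped each other, and the difference in sh2 was -0.65 ± 0.16 (SE; limma, BH-adjusted p = 0.0168). In sh1 it was -0.50 ± 0.16 (BH-adjusted p = 0.0511), which passed with dim rows left out, quantile normalization or the replicate block and without sh1 array 1 or sh2 array 3 (BH-adjusted p = 0.0376 to 0.0498). The sh2 call was lost without control array 3 or sh2 array 3 (-0.63 and -0.54, BH-adjusted p = 0.0553 and 0.0677), and relative to its neighbours the value was -0.42 (BH-adjusted p = 0.106). ABCA13, a very large protein of the subfamily, read 4.45, 4.52 and 4.77 in sh1, 4.50, 4.01 and 3.97 in sh2, and 4.81, 4.77 and 5.03 in the control. Its difference was -0.71 ± 0.17 in sh2 (BH-adjusted p = 0.0126) and -0.29 ± 0.17 in sh1 (BH-adjusted p = 0.282), and the sh2 call was lost without control array 3, sh2 array 2 or sh2 array 3 (-0.64 to -0.62, BH-adjusted p = 0.052 to 0.0522). ABCG1, which passes cholesterol to high-density lipoprotein, read 3.89, 4.73 and 4.26 in sh1, 3.57, 3.64 and 3.67 in sh2, and 3.80, 3.38 and 3.27 in the control. It was called in sh1, by 0.81 ± 0.21 (BH-adjusted p = 0.0164), although only the sh1 mean of 4.29 passed the lower quartile of the rows. That call was lost without control array 2 or 3 or sh1 array 2 (0.59 to 0.76, BH-adjusted p = 0.0555 to 0.0672), and relative to its neighbours it was 0.57 (BH-adjusted p = 0.0788).

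The other 12 lipid exporters were not called in any comparison. ABCA7, which acts in phagocytosis and lipid export, differed by -0.49 in sh1 and -0.37 in sh2 (limma, BH-adjusted p = 0.123 and 0.264). ABCA2, a lipid transporter of brain and lysosome, differed by -0.34 and -0.10, and ABCA4, the retinoid flippase of photoreceptors, by -0.14 and -0.20. Relative to its neighbours ABCA4 stood at -0.53 in sh2 (BH-adjusted p = 0.0434). ABCB4, which flips phosphatidylcholine into bile, ABCG5 and ABCG8, which form the sterol exporter of gut and liver, and ABCG4, ABCA8, ABCA9, ABCA10 and ABCA12 were under 4.21 in all 3 groups. ABCA6 averaged 4.21, 4.24 and 4.12 in sh1, sh2 and the control.

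Of 5 mitochondrial and lysosomal members 1 was called in sh1 (20.0%, against 18.8% of all rows) and 0 in sh2 (against 16.3% of all rows). In sh2, 0 passed at an unadjusted p under 0.05 (limma), where all 21448 rows gave 3158 higher and 2807 lower. ABCB10, a transporter of the mitochondrial inner membrane linked to heme synthesis, read 7.97, 7.52 and 7.57 in sh1, 8.10, 8.23 and 8.07 in sh2, and 8.40, 8.04 and 8.32 in the control. It fell by 0.57 ± 0.15 (SE) in sh1 (limma, BH-adjusted p = 0.0241) and differed by -0.12 ± 0.15 in sh2 (BH-adjusted p = 0.688). The sh1 call was lost without control array 1 or 3 or sh1 array 2 or 3 (-0.53 to -0.48, BH-adjusted p = 0.0766 to 0.0961). ABCB6, a porphyrin transporter, read 6.21, 5.62 and 6.17 in sh1, 6.69, 6.54 and 6.73 in sh2, and 6.14, 6.37 and 6.68 in the control, and differed from the control by -0.40 and 0.26 with overlap in both clones. ABCB8 of mitochondria, ABCB9 of lysosomes and ABCD4, which acts in lysosomal release of vitamin B12, differed by -0.48 to 0.14. Relative to its neighbours ABCB8, whose group means were under 4.21, stood at -0.74 in sh1 (BH-adjusted p = 0.0198).

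In peroxisomes, ABCD3 imports branched and dicarboxylic acids and ABCD2 imports very long-chain fatty acids. Of these 2 members 0 were called in sh1 (against 18.8% of all rows) and 1 in sh2 (against 16.3%). ABCD3 differed from the control by -0.08 in sh1 (95% interval -0.39 to 0.23) and 0.25 in sh2 (-0.06 to 0.56) and was not called. ABCD2 read 3.96, 4.30 and 4.0 in sh1, 4.29, 4.12 and 4.43 in sh2, and 3.45, 3.80 and 3.93 in the control, around the lower quartile. Its difference in sh2 was 0.55 ± 0.16 (SE; limma, BH-adjusted p = 0.0362), a call lost without control array 1 or 2 or sh2 array 1 or 3 (0.42 to 0.59, BH-adjusted p = 0.0693 to 0.147) and, at 0.33, relative to its neighbours (BH-adjusted p = 0.18). The sulfonylurea receptors ABCC8 and ABCC9, which regulate ATP-sensitive potassium channels, stayed under 4.21 in all groups. ABCE1, which recycles ribosomes, differed by -0.32 in sh1 and -0.17 in sh2, and ABCF3 by -0.18 and -0.08, and neither was called.

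The direct comparison of sh2 with sh1 does not use the control values in its difference and tests whether the clones differ. Of the 51 members, 9 were called (17.6%) against 11.3% of all rows, and all 9 were higher in sh2, where all rows gave 5.73% higher and 5.57% lower. At 2-fold or more 7 were called (3.52% of all rows), and 13 did not overlap between the clones (27.1% of all rows). At an unadjusted p under 0.05, 11 members were higher and 2 lower in sh2 (limma). All 21448 rows gave 2446 higher and 2571 lower at that cut. The difference was 2.72 ± 0.15 (SE) for SLCO1B3 (BH-adjusted p = 5.38e-07), again without a fold because of the low sh1 signal, and 2.04 ± 0.22 for SLCO4A1 (BH-adjusted p = 8.25e-05), which is 4.10-fold. It was 1.57 ± 0.15 for ABCA3, 1.38 ± 0.20 for SLCO4C1, 1.28 ± 0.12 for ABCC3, 1.07 ± 0.13 for ABCC4 and 1.02 ± 0.21 for ABCA1 (BH-adjusted p = 2.52e-05 to 0.00759). SLCO3A1 was higher in sh2 by 0.69 ± 0.15 (BH-adjusted p = 0.0107). ABCB6 was higher by 0.65 ± 0.19 (BH-adjusted p = 0.0428), a call lost in a fit of these 2 groups alone and without control array 2, sh1 array 2 or 3, or any sh2 array (0.46 to 0.74, BH-adjusted p = 0.0571 to 0.133). Relative to the control in sh2, SLCO1B3 and ABCC3 were called lower, SLCO4A1, SLCO4C1, SLCO3A1, ABCA1 and ABCA3 were called higher, and ABCC4 and ABCB6 were not called.

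**Figure D4:**
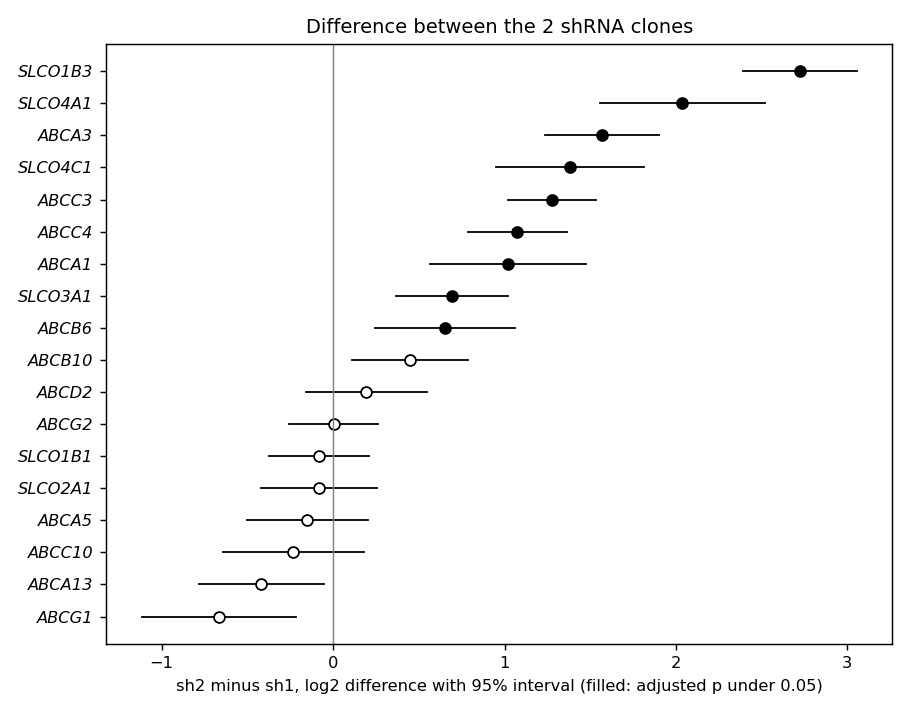
Difference of sh2 minus sh1 in log2 units (x axis; points with 95% intervals from limma; filled where the adjusted p was under 0.05) for the 18 members called in any comparison. The 9 filled points run from 0.65 for ABCB6 to 2.72 for SLCO1B3, and ABCG2 lies at 0.00.

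ABC genes with other symbols and the proteins that work with ABC members formed a separate list of 13 measured genes. In sh1, 1 was higher and 4 were lower, and in sh2 the counts were 1 and 4 (38.5% called in either clone, against 18.8% and 16.3% of all rows; median -0.35 and -0.34). TAPBP (tapasin), which bridges the TAP peptide transporter to class I molecules, fell by 1.61 ± 0.16 (SE) in sh1 and 1.46 ± 0.16 in sh2 (limma, BH-adjusted p = 2.81e-05 and 7.80e-05). TAP1, a subunit of that transporter and itself an ABC protein, fell by 0.52 in sh1 and 1.31 in sh2 (BH-adjusted p = 0.0198 and 5.13e-05), with the sh1 call lost relative to neighbours and without control array 1 or 3 or sh1 array 1 or 3 (-0.52 to -0.45, BH-adjusted p = 0.0537 to 0.0748). LMBRD1, the lysosomal partner of ABCD4, fell by 1.25 and 0.69 (BH-adjusted p = 0.000132 and 0.00863), while ABCD4 differed by -0.48 and -0.44. CFTR, the chloride channel of the ABCC subfamily, was under 4.21 in every array. Relative to neighbours, the calls of PDIA3 in both clones, of CALR in sh1 and of TAP2 in sh2 were also lost. On that scale TAPBPL newly passed in both clones, at -1.38 in sh1 and -0.90 in sh2.

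Among 14 measured lipid acceptors and cholesterol handling partners, 3 were higher and 0 lower in sh1, and 4 were higher and 1 lower in sh2 (21.4% and 35.7% called, against 18.8% and 16.3% of all rows; median 0.19 and 0.15). At an unadjusted p under 0.05, 6 were higher and 2 lower in sh1 (limma). All 21448 rows gave 3392 higher and 2998 lower in sh1 at that cut. PLTP, which moves phospholipid between lipoproteins, read 8.99, 8.42 and 8.91 in sh1, 9.96, 9.90 and 9.57 in sh2, and 6.83, 7.05 and 7.06 in the control. PLTP rose by 1.79 ± 0.17 (SE) in sh1 and 2.83 ± 0.17 in sh2 (limma, BH-adjusted p = 2.45e-05 and 7.00e-07). PLTP was higher in sh2 than in sh1 by 1.04, and ABCA1 by 1.02. APOE, an acceptor of exported cholesterol, rose by 1.41 and 1.08 (BH-adjusted p = 1.63e-05 and 0.000147). SCARB1, the receptor for high-density lipoprotein, rose by 1.53 in sh1 and differed by 0.16 in sh2 (BH-adjusted p = 3.67e-05 and 0.585). VLDLR was among the genes called higher in sh2. That call was lost without control array 2 or sh2 array 3 (0.87 to 0.91, limma, BH-adjusted p = 0.058 to 0.0621). NR1H3, 1 of the LXR genes, differed by 0.16 and 0.04 and was not called. The other LXR gene, NR1H2, was not among the measured transcription factors listed below.

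Of 17 measured genes listed as transcription factors known to control transporters, 2 were higher and 8 lower in sh1, and 3 were higher and 4 lower in sh2. That is 58.8% and 41.2% called, against 18.8% and 16.3% of all rows, and their median differences were 0.01 and 0.04. Just 2 of the 17 were under 4.21 in all groups, and rows not so dim gave 23.7% and 20.7%. The list includes KEAP1, which is not itself a transcription factor and was called lower in both clones (-0.53 and -0.64). Both KEAP1 calls were lost relative to its neighbours (-0.308 and -0.205), as were those of PPARD and PPARG in sh1 and of AHR in sh2. NR5A2, a regulator of bile acid and cholesterol genes, rose by 2.15 ± 0.16 (SE) in sh1 and 1.34 ± 0.16 in sh2 (limma, BH-adjusted p = 2.83e-06 and 0.000138). VDR, the vitamin D receptor, fell by 1.40 and 1.38 (BH-adjusted p = 0.000522 and 0.000706), and THRB, a thyroid hormone receptor, by 1.60 and 1.37 (BH-adjusted p = 0.00204 and 0.0063). RXRB, a shared partner of nuclear receptors, fell by 1.17 in sh1 (BH-adjusted p = 0.000285). In sh2 RXRB differed by -0.62 (BH-adjusted p = 0.0193), a call lost relative to its neighbours and without control array 2 or 3 or sh2 array 3 (-0.56 to -0.55, BH-adjusted p = 0.0703 to 0.0729).

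Of 22 measured genes of glutathione supply and conjugation, whose products ABCC proteins export, 3 were higher and 6 lower in sh1, and 5 were higher and 2 lower in sh2 (40.9% and 31.8% called, against 18.8% and 16.3% of all rows; median -0.04 and 0.26). MGST1, a microsomal glutathione transferase, showed opposite signs in the clones as ABCA3 and SLCO4A1 did. It read 10.38, 10.21 and 9.54 in sh1, 12.78, 12.60 and 12.93 in sh2, and 11.56, 11.41 and 11.42 in the control. The differences were -1.42 ± 0.20 (SE) and 1.31 ± 0.20 (limma, BH-adjusted p = 0.000373 and 0.000817). Relative to neighbours, the calls of CHAC1, GCLC, GSTA4 and GSTO1 in sh1 and of GCLC, GCLM, GSTZ1 and MGST2 in sh2 were lost. On that scale GGT1 newly passed in sh1, and GSTA1, GSTA2, GSTA4 and GSTM4 newly passed in sh2. The sh2 calls of GSTZ1 and MGST3 also ended without any of 3 and of 2 arrays. Of 22 measured carriers of other SLC families for organic ions and bile acids, 1 was higher and 3 lower in sh1, and 0 were higher and 3 lower in sh2 (18.2% and 13.6% called, against 18.8% and 16.3% of all rows). The share was near that of all rows in sh1 and below it in sh2. At an unadjusted p under 0.05, 0 of those carriers were higher and 5 lower in sh2 (limma). All 21448 rows gave 3158 higher and 2807 lower in sh2 at that cut. SLC22A4, the ergothioneine carrier, fell by 1.27 and 1.05 (BH-adjusted p = 0.00112 and 0.00456), and its sh2 call was lost relative to its neighbours (-0.56, BH-adjusted p = 0.086). The other sh2 calls, of SLC22A5 and SLC10A4, were lost in that way too, and in sh1 the calls of SLC10A4 and SLC47A2 ended without any of 5 and of 7 arrays.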

How the data were processed

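Total RNA (100 ng) was biotin-labelled with the WT Plus reagents, per the labels' protocols, and the arrays were processed with Transcriptome Analysis Console, per the submitters' processing notes. Its version, and the normalization and build it used, were not given in these sources. Since they span 2.03 to 18.57, the deposited values were taken as log2 signals, and no further scaling was applied. A row was given a gene only where the platform table lists a single symbol.

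All 21448 rows and 9 arrays were fitted together by group in limma 3.58.1 (R 4.3.3) with eBayes, and p-values were adjusted over all rows by the Benjamini-Hochberg method. The fitting code was checked on simulated data. For the neighbour correction, each array's deviation in the median of the 40 nearest expressed genes, in RefSeq order, was subtracted. Members, gene lists and tests were chosen with earlier results of these data known. Named members are those called in any comparison, and roles and related genes come from lists of textbook functions. Leaving out arrays, centring, quantile normalization, a filter on dim rows, another variance prior, fits of 2 groups and a replicate block were tried. Same-numbered arrays correlated in their deviations at -0.0358 to 0.18, above 0.1 for 2 of 9 pairs, so the numbers were not taken as pairs. Signal over background limits the precision of dim rows.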

Additional observations from a re-analysis of the deposited data

Results flagged for a closer look

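The change from the control differed between the clones for 9 members, by limma's test of sh2 minus sh1 with p-values adjusted over all rows. In log2 units the difference was 2.72 for SLCO1B3, 2.04 for SLCO4A1, 1.57 for ABCA3, 1.38 for SLCO4C1 and 1.28 for ABCC3. It was 1.07 for ABCC4, 1.02 for ABCA1, 0.69 for SLCO3A1 and 0.65 for ABCB6. In each of these 9 genes all sh2 arrays lay above all sh1 arrays. Each clone grew from a single colony, so clone and shRNA cannot be told apart in these differences. Outlying arrays were looked for only in groups of 4 to 10, so the groups of 3 here were not tested for them.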

How the results depend on the processing

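The 18 named members gave 54 values over the 3 comparisons, of which 33 were called, and 21 of those calls held under all 16 other settings. Of the other 12 calls, 10 ended when a single array was left out. The neighbour correction ended 7 calls and brought past the threshold 7 of the members' values that were not called (ABCB8 and SLCO3A1 in sh1, and ABCA4, ABCB5, ABCC4, SLCO1C1 and SLCO2A1 in sh2). It reversed 3 values, which became 0.20 for ABCC10 in sh1, 0.13 for ABCC3 in sh2 and -0.61 for SLCO3A1 in sh1. Centring, quantile normalization, the filter on dim rows and the trended robust prior ended 0 of the 33. The number of called members was 7 to 13 in sh1, 10 to 14 in sh2 and 8 to 11 for sh2 minus sh1 with an array left out, and the 7 came without sh1 array 2. Members higher in sh1 (2) became 4 with the trended robust prior, 1 with the neighbour correction and 0 to 3 with an array left out. Members lower in sh1 numbered 6 to 10, members higher in sh2 4 to 7 and members lower in sh2 5 to 7 with an array left out. For sh2 minus sh1, the 0 members lower in sh2 became 1 (ABCG1) with that prior and 0 to 1 with an array left out, against 8 to 10 higher. With the replicate block, 11 members were called in sh1, 13 in sh2 and 9 for sh2 minus sh1, and the pairing check did not support pairs. The causes of these shifts were not tested. Rows near the lower quartile (4.21), such as ABCD2, ABCG1, ABCA13, SLCO1B1 and SLCO2A1, are limited by signal over background.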

Other observations

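Glucuronide and sulfate conjugation supplies substrates to ABCC3. Of 19 measured genes listed under it, 2 were higher and 1 lower in sh1, and 1 was higher and 0 lower in sh2. That is 15.8% and 5.26% called, against 18.8% and 16.3% of all rows. The list also holds UGT8 and STS, which do not make such conjugates, and both were among the sh1 calls. The sh2 call, of SULT2B1, was lost relative to its neighbours and without any of 4 arrays. At an unadjusted p under 0.05, 2 were higher and 0 lower in sh2 (limma). All 21448 rows gave 3158 higher and 2807 lower in sh2 at that cut. UGT8, which makes galactosylceramide, rose by 1.60 ± 0.24 (SE) in sh1 (BH-adjusted p = 0.000602) and differed by 0.56 ± 0.24 in sh2. STS, which removes sulfate from steroids taken up by SLCO carriers, fell by 0.90 ± 0.17 in sh1 (BH-adjusted p = 0.00315) and differed by -0.36 ± 0.17 in sh2.

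Of 16 measured partners of mitochondrial heme and iron-sulfur synthesis, where ABCB10 acts, 1 was higher and 1 lower in sh1, and 2 were higher and 1 lower in sh2 (12.5% and 18.8% called, against 18.8% and 16.3% of all rows). All 3 sh2 calls (HMOX1, SLC25A37 and TMEM14C) were lost relative to neighbours. UROD, a heme synthesis enzyme, averaged 10.53 in sh1, 11.37 in sh2 and 11.41 in the control, and fell by 0.88 ± 0.12 (SE) in sh1 (limma, BH-adjusted p = 0.00042), the clone in which ABCB10 fell. HMOX1, which degrades heme, rose by 1.41 ± 0.27 in sh1 (BH-adjusted p = 0.0031) and differed by 0.91 ± 0.27 in sh2 (BH-adjusted p = 0.0389), a call that also ended without any of 6 arrays. Of 6 measured genes of thyroid hormone handling, 0 were higher and 3 lower in sh1, and 0 were higher and 1 lower in sh2 (3 of 6 called in sh1, against 18.8% of all rows, and 16.7% in sh2, against 16.3%). At an unadjusted p under 0.05, 0 were higher and 3 lower in sh1, and 1 was higher and 3 lower in sh2 (limma). All 21448 rows gave 3392 higher and 2998 lower in sh1 at that cut, and 3158 higher and 2807 lower in sh2. THRA, a thyroid hormone receptor, fell by 1.28 in sh1 and 0.83 in sh2 (BH-adjusted p = 5.59e-05 and 0.00168), and its sh2 call was lost with the neighbour correction. The sh1 call of DIO2 was lost when any of 4 arrays was left out (limma, BH-adjusted p = 0.0717 to 0.116). It was also lost with the trended robust prior. Among 16 prostaglandin genes, 0 were called in sh1 (against 18.8% of all rows) and 1 in sh2 (6.25%, against 16.3%). In sh1, 1 passed at an unadjusted p under 0.05 (limma), where all 21448 rows gave 3392 higher and 2998 lower. The sh2 call, of TBXAS1, was lost relative to its neighbours and without any of 4 arrays.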
